A study of Homo sapiens with 9 samples.

Results

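miR-21 is a single hairpin RNA that yields a mature miRNA from each of its arms, hsa-miR-21-5p and hsa-miR-21-3p. Both were followed here in Jurkat cells (clone E6-1), an established line grown from a human T cell leukaemia, before and after activation. The rule took every row of the count table whose mature name was miR-21-5p or miR-21-3p, and it found 2 of 2883 rows, both on the single hairpin hsa-mir-21. Small RNA was sequenced from cells that were not activated (0 h) and from cells activated for 5 h and for 12 h, with 3 biological replicates at each time and 9 libraries in all. For activation an antibody to CD3, which carries the signal of the T cell receptor, was bound to the plate at 10 µg/mL, and an antibody to the costimulatory receptor CD28 was added in solution at 5 µg/mL. Every group is the same leukaemia-derived clone, and the labels give no unactivated cells held for 5 h or 12 h, so activation and time in culture cannot be told apart. In such bulk samples fewer cells carrying an RNA and less of it per cell cannot be told apart either.

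miRNA hairpins are cut by Drosha and Dicer into a short duplex, and usually 1 strand is kept by Argonaute to repress target mRNAs while the other (the passenger strand) is degraded quickly. In miR-21 the kept strand is the 5p arm, which represses mRNAs such as those of PDCD4 and the SPRY genes. Transcription of the primary transcript is driven by AP-1, STAT3 and other factors downstream of cell surface receptors, and miR-21 is known to rise when primary T cells are activated.

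The mature 5p sequence (RefSeq, GRCh38.p14) is shown because its seed, bases 2 to 8 counted from the 5′ end and given in capitals, defines which mRNAs it pairs with. The sequence below it is the only other RefSeq mature miRNA, of 2370 names searched, with the same seed.
hsa-miR-21-5p: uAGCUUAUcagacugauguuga
hsa-miR-590-5p: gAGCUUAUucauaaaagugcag
Over the full length 14 of 22 positions differ, all of them outside the shared seed. The hairpin is shown to place the 5p arm, in capitals, on its precursor.
hsa-mir-21 hairpin: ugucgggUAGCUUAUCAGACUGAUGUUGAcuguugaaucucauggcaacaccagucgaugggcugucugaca
The 5p arm occupies bases 8 to 29 of the 72-base hairpin. In the structure that RNAfold predicted, at -34.6 kcal/mol, 19 of the 22 bases of the 5p arm were paired, among them all 7 seed bases.

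The hairpin lies on the plus strand of chromosome 17 at chr17:59841266-59841337 and the 5p arm at chr17:59841273-59841294. GENCODE 29 places MIR21 within the gene VMP1 (chr17:59707192-59842255, same strand), which encodes a membrane protein of autophagy. The hairpin starts 174 bases after the last base of the protein-coding VMP1 transcripts. It is inside an exon of a retained-intron transcript of VMP1 (chr17:59837931-59842255). The RefSeq coordinates of miR-590-5p are chr7:74191213-74191234 on the plus strand.

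Total counts ranged from 6631839 to 16207031 per library. In a principal component analysis replicate 3 of 0 h and replicate 3 of 12 h, the shallowest libraries, stood apart from the other 7 (22.8 and 17.0 on the second component, against -15.0 to 0.561), and results are therefore also given without both. Levels are in CPM, the count relative to the total of its library, after scaling by the trimmed mean of M values (TMM). All 5 lymphoid marker miRNAs were present, with a summed level of 43276 to 59577 CPM over the 9 libraries. The 20 markers of other cell types summed to 302 to 385 CPM at 0 h, 345 to 441 CPM at 5 h and 372 to 422 CPM at 12 h. Of these, miR-1-3p, miR-133a-3p and miR-206 (muscle), miR-124-3p (neural) and miR-205-5p (epithelial) had 0 counts in all libraries, and miR-223-3p (myeloid, 134 CPM) and miR-200c-3p (epithelial, 103 CPM) were the most abundant. The liver marker miR-122-5p had 66.8 CPM in replicate 3 of 5 h, against 2.05 and 0.205 CPM in replicates 1 and 2. At 0 h and 12 h it had 9.03 CPM or less. Neither list had a member that passed the test at 5 h or 12 h, and their part in the results below was not tested.

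miR-21-5p, the strand that is kept, was measured at 245, 303 and 218 CPM in replicates 1, 2 and 3 of 0 h. It was at 650.1, 672 and 714 CPM in the libraries of 5 h, and at 975, 729.5 and 858 CPM in those of 12 h. All 5 h libraries were above all 0 h libraries, and all 12 h libraries were above all 5 h libraries, though the highest at 5 h (714 CPM) and the lowest at 12 h (729.5 CPM) lay close together. The means were 255 ± 43.1, 679 ± 32.4 and 854 ± 123 CPM at 0, 5 and 12 h (SD, n = 3 each). These values rest on 1433 to 13053 counts per library.

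miR-21-3p, the passenger strand, followed another course. It had 1.54, 4.97 and 7.92 CPM in replicates 1, 2 and 3 of 0 h, which are 24, 65 and 52 counts. At 5 h it had 77.4, 83.2 and 91.7 CPM (830, 811 and 1564 counts), and at 12 h 26.4, 33.0 and 49.0 CPM (354, 391 and 312 counts). The 3 groups did not overlap: every 5 h library was above every 12 h library, and every 12 h library above every 0 h library. The means were 4.81 ± 3.19, 84.1 ± 7.19 and 36.1 ± 11.6 CPM at 0, 5 and 12 h (SD, n = 3 each). The arm was above 3 counts (0.193 CPM in the library with the lowest value) in every library. Relative to the mean its replicates spread most at 0 h, with a coefficient of variation of 66.3% at 0 h, 8.55% at 5 h and 32.1% at 12 h.

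**Figure D1:**
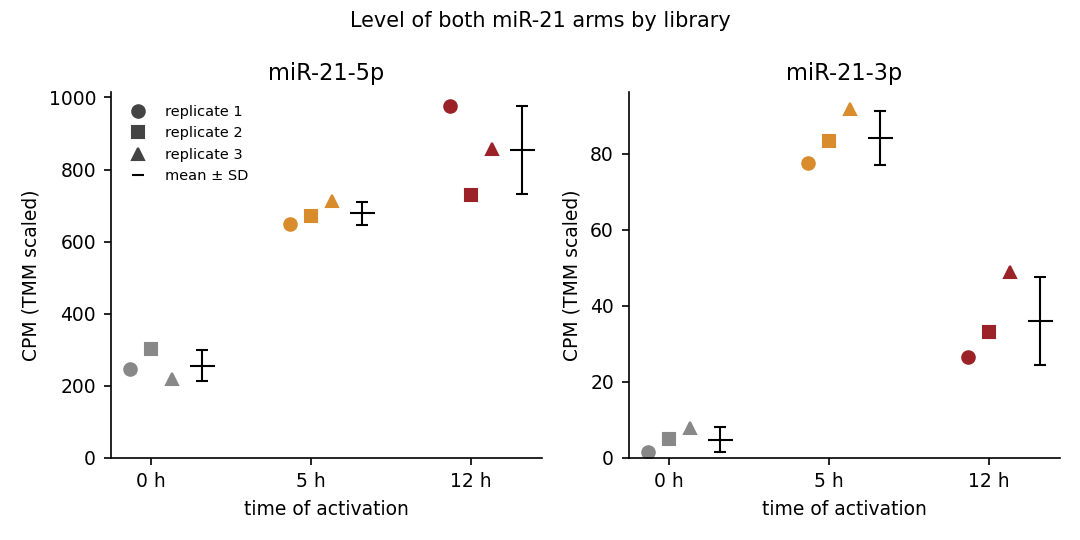
Level of miR-21-5p (left) and miR-21-3p (right) in each library, in CPM on linear axes that start at 0, at 0 h, 5 h and 12 h of activation. Symbols are replicates 1 to 3, and the black bars are the mean ± SD of 3 libraries: miR-21-5p is highest at 12 h (729.5 to 975 CPM) and miR-21-3p at 5 h (77.4 to 91.7 CPM).

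The first comparison asked whether each arm had changed 5 h after activation. Both rose. For miR-21-5p the level at 5 h was 2.66-fold that at 0 h (log2 change 1.41, SE 0.15, 95% interval 1.10 to 1.72, edgeR quasi-likelihood test, Benjamini-Hochberg adjusted p = 3.39e-06). For miR-21-3p it was 18.1-fold (log2 change 4.18, SE 0.43, interval 3.28 to 5.08, edgeR adjusted p = 3.39e-06). By p they ranked 3rd and 2nd among the 701 rows tested, of which 11 (1.57%) passed, 10 of them (1.43%) with a higher level at 5 h. The 3 libraries of 5 h lay above the 3 of 0 h in 6.85% of all rows tested. A larger fitted increase than that of miR-21-3p was found in 16 rows. Without both libraries that stood apart the log2 changes were 1.31 for miR-21-5p (edgeR adjusted p = 0.000109) and 4.71 for miR-21-3p (edgeR adjusted p = 1.16e-05).

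At 12 h both arms were again above 0 h, miR-21-5p by more and miR-21-3p by less than at 5 h. The increase of miR-21-5p was 3.34-fold (log2 change 1.74, SE 0.15, interval 1.43 to 2.05, edgeR adjusted p = 1.07e-07) and that of miR-21-3p 7.76-fold (log2 change 2.96, SE 0.41, interval 2.09 to 3.82, edgeR adjusted p = 0.00015). In this comparison 10 rows (1.43%) passed, 7 of them (0.999%) with a higher level at 12 h, and the groups did not overlap, with 12 h higher, in 7.13% of rows. Without both libraries that stood apart the log2 changes were 1.63 (edgeR adjusted p = 1.98e-05) and 3.19 (edgeR adjusted p = 0.000328). Both comparisons use the same 0 h libraries. A joint test over the 3 times, which 12 rows (1.71%) passed, was also passed by both arms (edgeR adjusted p = 3.97e-07 for miR-21-5p and 8.33e-06 for miR-21-3p).

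Between 12 h and 5 h the differences of the arms had opposite signs, and neither passed. miR-21-5p had a log2 difference of 0.33 (SE 0.14, interval 0.03 to 0.63; unadjusted p = 0.0319, edgeR adjusted p = 0.72), with levels at 12 h above those at 5 h in 3 of 3 libraries. miR-21-3p had a log2 difference of -1.22 (SE 0.37, interval -2.01 to -0.44; unadjusted p = 0.00413, edgeR adjusted p = 0.414), with levels at 12 h below those at 5 h in 3 of 3 libraries. Only 4 rows (0.571%) passed here, among them miR-146a-5p with a higher level at 12 h; the other 3 (miR-222-5p, miR-4521 and miR-92a-1-5p) were lower. All 12 h libraries lay above all 5 h libraries in 4.99% of rows, and the groups did not overlap, in either direction, in 12.8%. The call of miR-21-3p depended on the settings: its adjusted p was 0.00105 with no filter on low counts in edgeR, 0.00398 with limma-voom, 0.0199 with edgeR on the 6 libraries alone and 0.0276 in edgeR without replicate 1 of 0 h, where the log2 difference stayed between -1.35 and -1.22, and with DESeq2 it was 0.286. Over all 21 alternatives it ran from 0.000786 to 0.757.

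The division of reads between the arms was then compared within each library, where the scaling between libraries does not enter. The 3p arm held 0.625% (24 of 3838 counts, exact 95% interval 0.401 to 0.929%), 1.62% (1.25 to 2.05%) and 3.50% (2.63 to 4.57%) of the counts of both arms in replicates 1, 2 and 3 of 0 h. At 5 h it held 10.6% (9.97 to 11.4%), 11.0% (10.3 to 11.8%) and 11.4% (10.9 to 11.9%). At 12 h it held 2.64% (2.38 to 2.93%), 4.33% (3.92 to 4.77%) and 5.40% (4.83 to 6.01%). The counting intervals of the 5 h libraries overlapped each other and stood above all others, whereas 12 h and 0 h overlapped. For each count of the 3p arm there were 27.6 to 159 counts of the 5p arm at 0 h (median 60.9), 7.78 to 8.39 at 5 h and 17.5 to 36.9 at 12 h. Intervals cover counting error only, and since sequences differ in how well they are ligated into a library, a share of reads is not a share of molecules.

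The share averaged 11.0% ± 0.372 at 5 h and 1.91% ± 1.46 at 0 h (SD, n = 3 each), a difference of 9.10 percentage points (exact two-sided permutation p = 0.1, the smallest that 3 against 3 libraries can give). At 12 h it averaged 4.12% ± 1.39, a difference of 2.21 points from 0 h (exact permutation p = 0.2, n = 3 each) and of -6.90 points from 5 h (exact permutation p = 0.1, n = 3 each). Replicate 3, the shallowest library at both 0 h and 12 h, had the highest share of its group at both times. At 5 h replicate 3 was the deepest library and also had the highest share. The part of depth in this was not tested. From replicate 1 to replicate 3 the share rose in order at every time, and the labels do not say whether these numbers pair the libraries. On mean levels, 15.8% of the CPM by which both arms together exceeded 0 h at 5 h were on the 3p arm, and 4.97% at 12 h.

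**Figure D2:**
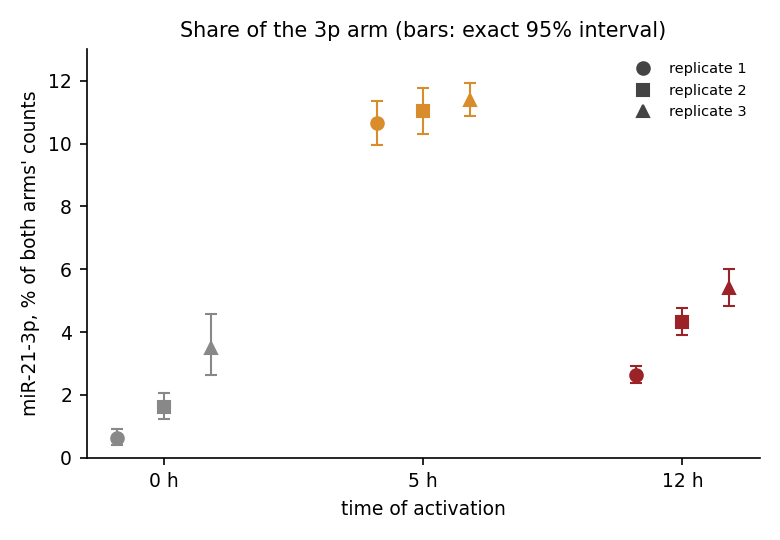
Percent of the counts of both miR-21 arms that are miR-21-3p, per library, at 0 h, 5 h and 12 h of activation. Symbols are replicates 1 to 3 and bars are exact 95% binomial intervals: the 5 h libraries lie at 10.6 to 11.4%, those of 12 h at 2.64 to 5.40% and those of 0 h at 0.625 to 3.50%.

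To set this against other hairpins, the ratio of 3p to 5p counts was fitted in edgeR for all 163 hairpins with both arms tested. At 5 h the miR-21 ratio was 7.78-fold that of 0 h (log2 change 2.96, SE 0.59, interval 1.61 to 4.31; unadjusted p = 0.000951) and had the smallest p of all hairpins, but did not pass over the table (edgeR adjusted p = 0.155). Of the 163 hairpins 0 passed (0%) and 6 had an unadjusted p under 0.05 in edgeR, while limma on log2 ratios called 1, which was miR-21 (limma adjusted p = 0.00186, log2 change 2.92). With hairpins kept only where both arms had 10 CPM in 3 libraries, miR-21 passed in edgeR as well (adjusted p = 0.00725). miR-21-3p reached 10 CPM in no library of 0 h and met this filter only through activated cells, so this pass is no separate support. Over 17 alternatives the adjusted p ran from 0.00186 to 0.765. The change was 2.34 without replicate 1 of 0 h (edgeR adjusted p = 0.206). Leaving out replicate 3 of 0 h gave 3.57, and there it passed (edgeR adjusted p = 0.0317). Without both libraries that stood apart it was 3.57 (edgeR adjusted p = 0.0602).

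The size of that change was then read beside the depth of each hairpin. The median size over all 163 hairpins was 0.55 on the log2 scale, and 10 hairpins had a larger change than miR-21, each with a lesser arm that averaged 44.8 counts per library or fewer, against 489 counts for miR-21-3p. These averages are over all 9 libraries. At 0 h miR-21-3p had only 24 to 65 counts, so its ratio there rests on low counts as well. Among the 57 hairpins whose lesser arm averaged at least 10 CPM over all 9 libraries the median size was 0.26. The next largest after miR-21 was miR-132, a hairpin chosen here after its values were seen, with a log2 change of the 3p to 5p ratio of -1.50 (SE 0.95). miR-21-3p met this cut only through 5 h and 12 h, since at 0 h it had 1.54 to 7.92 CPM. The same held for miR-132-5p (0.386 to 8.87 CPM at 0 h). The place of miR-21 in this set therefore depends on its own rise, and its rank by size there is no separate support. Groups of 5 h and 0 h did not overlap in 18.4% of hairpins, and miR-21 was among them.

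At 12 h the miR-21 ratio had a log2 change of 1.37 against 0 h (SE 0.59, interval 0.03 to 2.72, edgeR adjusted p = 0.733), and 12 h against 5 h had a log2 difference of -1.59 (SE 0.56, interval -2.88 to -0.29, edgeR adjusted p = 0.45). Neither passed. No hairpin of the 163 passed in either comparison in edgeR (0% in each), where 11 and 15 had an unadjusted p under 0.05. In limma 0 were called at 12 h against 0 h, and 1, miR-92a-1, at 12 h against 5 h. Against 0 h the change at 12 h was 0.76 without replicate 1 of 0 h and 1.99 without replicate 3 of 0 h. In that comparison 35 hairpins had a larger change than miR-21, among them 1 of the 57 above the cut on mean CPM (miR-92a-2, 1.57, chosen here after its values were seen). miR-21-3p met that cut only through its 5 h and 12 h libraries. Between 12 h and 5 h, 25 hairpins had a larger change than miR-21, and 0 of the 57 above the cut did. By p in edgeR, miR-21 ranked 9th of the 163 hairpins at 12 h against 0 h and 8th at 12 h against 5 h.

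**Figure D3:**
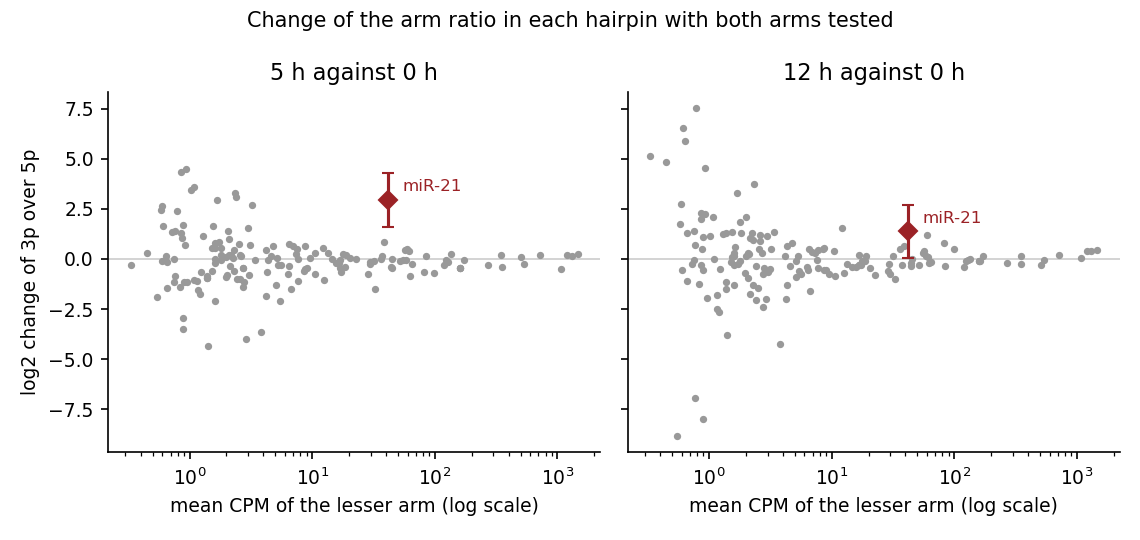
Log2 change of the ratio of 3p to 5p counts (vertical axis) against the mean CPM of the lesser arm (horizontal log axis) for each of 163 hairpins, at 5 h against 0 h (left) and 12 h against 0 h (right). The red diamond is miR-21 with its 95% interval (1.61 to 4.31 at 5 h), which at 5 h stands above the grey points of hairpins with a lesser arm of similar mean level, while hairpins under about 10 CPM scatter widely. The mean is over all 9 libraries, and in those of 0 h miR-21-3p was itself under 10 CPM.

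In the order of abundance both arms stood higher after activation than before. Ordered by mean CPM miR-21-5p was 86th of 846 mature miRNAs with counts at 0 h, 57th of 920 at 5 h and 52nd of 844 at 12 h. miR-21-3p was 304th, 129th and 161st at the 3 times. The neighbours in this order at 0 h of miR-21-5p were miR-140-5p (261 ± 55.5 CPM) and miR-146a-5p (255 ± 8.91 CPM), at 5 h miR-342-5p (682 ± 58.2 CPM) and miR-23a-3p (635 ± 35.5 CPM), and at 12 h miR-146a-5p (882 ± 95.5 CPM) and miR-361-5p (839 ± 96.0 CPM) (SD, n = 3 each). Each differed from miR-21-5p by less than either SD, other than miR-23a-3p, which was lower than miR-21-5p at 5 h by more than either SD. Counting each mature miRNA once, miR-21-5p held 0.0320 to 0.0465% of all counts at 0 h, 0.102 to 0.116% at 5 h and 0.114 to 0.160% at 12 h.

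miR-590-5p, which carries the same seed, did not follow miR-21-5p. It had 96.5 ± 13.7, 85.1 ± 9.44 and 94.3 ± 16.9 CPM at 0, 5 and 12 h (SD, n = 3 each), with log2 changes of -0.18 at 5 h (SE 0.20, interval -0.59 to 0.23, edgeR adjusted p = 0.996) and -0.03 at 12 h (SE 0.20, interval -0.45 to 0.38, edgeR adjusted p = 0.992). The small difference at 12 h changed sign under some scalings. At 0 h its mean level was below that of miR-21-5p, and the interval at 5 h excludes a rise of the size that miR-21-5p showed.

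The increase of miR-21 was next set beside other miRNAs whose transcription is known to respond to receptor signalling through NF-kB, AP-1, STAT3 or CREB, a list of 15 arms chosen with earlier results of these data known. Of 13 tested members 6 rose and 0 fell at 5 h, and 5 rose and 0 fell at 12 h. miR-34a-5p and miR-125b-5p had too few counts for the test. Those that rose at 5 h were both arms of miR-132, both arms of miR-212, miR-146a-5p and miR-222-3p. At 12 h they were the same without miR-222-3p. miR-132 and miR-212 are encoded beside each other, and each of their arms is a separate member of the list. The counts of members that rose are therefore larger than the number of separate genome sites behind them. Over all 701 rows 1.43% passed with a higher and 0.143% with a lower level at 5 h, and 0.999% and 0.428% at 12 h. The median log2 change of the 13 was 0.49 at 5 h and 0.44 at 12 h, against 0.03 and 0.01 over all 701 rows. The fitted change of miR-212-5p, which had 0 counts at 0 h, is no measure of size, and the median is the same wherever it lies above the median.

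miR-132-3p, whose gene is a target of the factor CREB, had a log2 change of 2.85 at 5 h (SE 0.12, edgeR adjusted p = 3.19e-12) and 3.00 at 12 h (SE 0.12, edgeR adjusted p = 1.48e-12). Its passenger strand miR-132-5p, like miR-21-3p, was scarce at 0 h (4.00 ± 4.38 CPM) and had 52.4 ± 3.19 CPM at 5 h and 41.8 ± 6.77 CPM at 12 h (SD, n = 3 each; edgeR adjusted p = 0.000974 and 0.00224 against 0 h). The passenger strands of miR-21 and miR-132 thus both peaked in mean at 5 h, but the difference between 12 h and 5 h passed for neither (log2 difference -0.33, edgeR adjusted p = 1 for miR-132-5p). At 12 h the call of miR-132-5p was lost with the 0 h and 12 h libraries alone (edgeR adjusted p = 0.0877) and without both libraries that stood apart (0.0776), over a range of 8.79e-24 to 0.0877 in 21 alternatives. miR-212-3p, encoded beside miR-132, had 0.386 ± 0.668, 11.4 ± 1.64 and 12.2 ± 6.45 CPM at 0, 5 and 12 h, and miR-212-5p 0 counts at 0 h, 5.08 ± 4.29 CPM at 5 h and 6.31 ± 3.24 CPM at 12 h. Both arms of miR-212 passed at both times (edgeR adjusted p = 0.00545 and 0.00129 at 5 h, and 0.00452 and 0.00104 at 12 h), though at 12 h miR-212-3p lost its call in 3 of 20 alternatives, with the 0 h and 12 h libraries alone (edgeR adjusted p = 0.11), without replicate 3 of 12 h (0.0588) and without both libraries that stood apart (0.108; range 4.74e-10 to 0.11). At 5 h miR-212-5p lost its call in 1 of 19, with limma-voom (adjusted p = 0.0501; range 5.37e-07 to 0.0501).

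miR-146a-5p, an NF-kB target that restrains the adaptors TRAF6 and IRAK1, started at nearly the level of miR-21-5p and ended at nearly its level, by another route. Its log2 change was 0.90 at 5 h (SE 0.13, edgeR adjusted p = 0.000159) and 1.79 at 12 h (SE 0.13, edgeR adjusted p = 1.1e-08), and it alone of the list also passed between 12 h and 5 h (log2 difference 0.88, SE 0.13, edgeR adjusted p = 0.000349). At 5 h, 478 ± 31.4 CPM of miR-146a-5p stood against 679 ± 32.4 CPM of miR-21-5p. miR-222-3p, which targets the mRNA of p27, an inhibitor of the cell cycle, passed at 5 h (log2 change 0.49, SE 0.11, edgeR adjusted p = 0.0230), a call that was lost in 6 of 21 alternatives (range 0.000298 to 0.504), 5 of which left out replicate 1 or 3 of 0 h or a single library of 5 h. At 12 h miR-222-3p had a log2 change of 0.44 (SE 0.11, edgeR adjusted p = 0.0647) and did not pass, other than in 5 of 21 alternatives (range 0.00282 to 0.456). miR-155-5p, whose host transcript is MIR155HG, had 2.71 ± 2.85, 9.37 ± 1.38 and 9.36 ± 2.97 CPM at the 3 times and did not pass (edgeR adjusted p = 0.538 at 5 h and 0.511 at 12 h), except without replicate 3 of 0 h (0.0101 and 0.0111), alone or together with replicate 3 of 12 h (0.0296 and 0.0393); over 20 alternatives the adjusted p ran from 0.0101 to 0.82 at 5 h and from 0.0111 to 0.824 at 12 h.

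**Figure D4:**
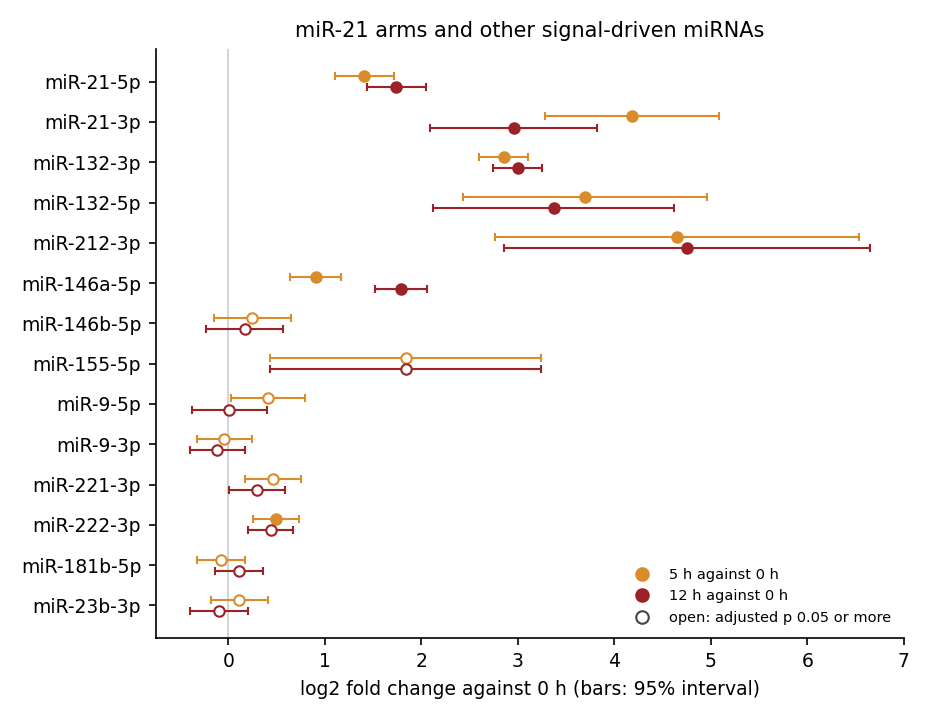
Log2 fold change against 0 h (horizontal axis, bars are 95% intervals) at 5 h (orange) and 12 h (red) for both miR-21 arms and for the tested members of the list of signal-driven miRNAs other than miR-212-5p, which had 0 counts at 0 h. Open symbols did not pass an adjusted p of 0.05: both miR-21 arms passed at both times, with miR-21-3p at 4.18 and 2.96 and miR-21-5p at 1.41 and 1.74.

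Finally, the profile of each arm was compared with those of 244 other mature miRNAs with a mean of at least 10 CPM. Each profile was log2(CPM + 0.5) over the 9 libraries minus its own mean, and likeness was the root mean square difference between profiles. The nearest to miR-21-5p were miR-146a-5p (0.32 log2 units), miR-153-5p (0.54) and miR-222-3p (0.57), against a median of 0.82 over all 244. miR-153-5p is a scarce miRNA with 9.60 to 17.0 CPM at 0 h, 14.5 to 19.3 CPM at 5 h and 15.6 to 23.8 CPM at 12 h, and it did not pass at 5 h or 12 h (edgeR adjusted p = 0.996 and 0.752). The nearest to miR-21-3p were miR-132-5p (0.74), miR-132-3p (0.88) and miR-21-5p (1.28), against a median of 1.86. Seen from miR-21-5p, its own opposite arm ranked 240th of 244. Profiles were centred but not scaled, so this distance depends on the size of a change as well as on its course, and the rank does not mean opposite patterns. All profiles come from the same 9 libraries, and at 0 h those of miR-21-3p and miR-132-5p rest on 24 to 65 and 6 to 116 counts.

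**Figure D5:**
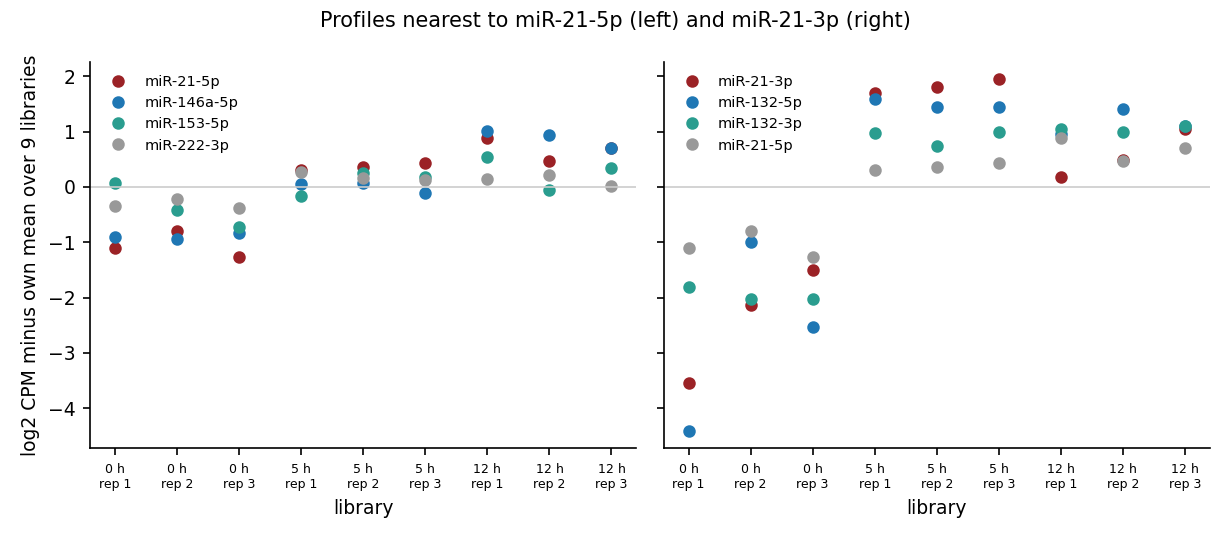
Log2(CPM + 0.5) minus its mean over the 9 libraries (vertical axis) in each library (horizontal axis) for miR-21-5p and the 3 profiles nearest to it (left) and for miR-21-3p and the 3 nearest to it (right). miR-21-5p and miR-146a-5p (root mean square difference 0.32) both stand highest at 12 h, while miR-21-3p stands highest at 5 h and spreads widely over the 0 h libraries.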

How the data were processed

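The authors deposited raw counts, 1 row per pair of hairpin and mature miRNA, and a table of log2 normalised values; both were used. The submitters' processing notes name GRCh38.p13 and DESeq2; for the aligner, counter and annotation, "not given in the sources used here" applies. Per the labels' protocols, total RNA was extracted by column and libraries made with RealSeq kits. The deposited log2 table holds the 430 rows above 0 in every library and equals log2 of (count divided by a library factor, plus 1) to within 5.05e-09; it served 1 alternative.

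Rows past filterByExpr (minimum count 10, minimum total 15; 701 of 1214 with counts) were TMM scaled and fitted in edgeR 4.0.16 (R 4.3.3) with quasi-likelihood, 1 mean per time over 9 libraries, and adjusted by Benjamini-Hochberg over all rows (threshold 0.05). Repeated hairpin rows of other miRNAs enter the CPM total. Arm ratios used the arm-by-time term with the library as block. Alternatives used limma 3.58.1 and DESeq2 1.42.0, other scalings, filters and sample sets; leaving out both shallowest libraries together was added after the data were seen. Intervals of shares are exact (Clopper-Pearson). Replicates were not duplicated libraries (chi-square over degrees of freedom of 83.6 or more). The fits were tested on simulated data. Of 2654 mature names counted, 2365 had a RefSeq mature sequence; the seed search used that of miR-21-5p; structure was predicted with ViennaRNA 2.7.2, and annotation is GENCODE 29. Figures used matplotlib 3.10.9.

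The members, lists and tests were chosen with earlier results of these data known. The naming rule took both arms, miRNAs with the same seed, list members that passed plus miR-132-3p, miR-146a-5p and miR-155-5p, the 3 nearest profiles per arm, rank neighbours of miR-21-5p, and up to 5 hairpins past the arm-ratio threshold. For miR-222-5p, miR-4521, miR-92a-1-5p and other hairpins, names were added after their values were seen.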

Additional observations from a re-analysis of the deposited data

How the results depend on the processing

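Both arms kept their direction and their call against 0 h in all 21 alternatives: the log2 change at 5 h was 1.31 to 1.52 for miR-21-5p and 3.76 to 4.71 for miR-21-3p, and at 12 h 1.59 to 1.90 and 2.49 to 3.48. miR-21-5p did not pass between 12 h and 5 h in any of them (0.20 to 0.50, adjusted p 0.183 to 0.96). miR-21-3p passed there in 5 of 21. The log2 difference was -1.22 with no filter, -1.35 with limma-voom, -1.22 with only the 2 groups and -1.29 with the replicate block (edgeR adjusted p = 0.000786). The remaining pass was the fit without replicate 1 of 0 h (edgeR adjusted p = 0.0276). With single libraries left out the difference ran from -1.52 to -1.07, and the edgeR adjusted p from 0.0276 to 0.757. The arm ratio at 5 h passed in 4 of 17, at 2.92 and 2.98 in limma with prior counts of 2 and 0.5 and at 2.94 with the stricter filter, which miR-21-3p met only through activated cells. It ran from 2.34 to 3.57 with single libraries left out, and the cause was not tested. At 12 h it passed in 0 of 17 against 0 h (0.76 to 1.99) and in 0 of 17 against 5 h (-1.82 to -1.29).

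Counts of rows past the threshold moved by over 1.5 times with no filter, where 17 passed at 5 h (10 higher, 7 lower; 11 in the main fit), 12 at 12 h against 5 h (8 higher, 4 lower; 4 in the main fit) and 21 over any difference (12 in the main fit), with only the 2 groups (6 at 12 h, in place of 10) and with the replicate block (11 at 12 h against 5 h and 21 over any difference). With single libraries left out they ran from 9 to 11 at 5 h, 8 to 10 at 12 h, 3 to 10 at 12 h against 5 h and 7 to 15 over any difference. Arm ratio counts of 0 became 1 in limma with either prior count (miR-21 at 5 h, miR-92a-1 at 12 h against 5 h) and 1 in each comparison with the stricter filter, with miR-92a-2 at 12 h. With single libraries left out they ran from 0 to 1 at 5 h, 0 to 4 at 12 h and 0 to 0 at 12 h against 5 h; the 4, without replicate 2 of 5 h, were miR-26a-1, miR-454, miR-92a-2 and miR-96.

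The shared replicate numbers are not stated to pair the libraries, and deviations of same-numbered libraries correlated at -0.179 to 0.255, so the block shows only a shared number. The miR-590-5p change at 12 h (-0.03) turned to 0.016 with library totals, 0.12 with upper quartile factors, and 0.0069 and 0.073 without replicate 2 of 0 h and replicate 3 of 12 h; with single libraries left out it ran from -0.19 to 0.073. Upper quartile factors moved the median of all rows to 0.17 at 12 h against 0 h, from 0.01 with TMM. The 3p share differences ran from 8.46 to 9.90 points at 5 h, 1.56 to 3.00 at 12 h and -7.54 to -6.16 at 12 h against 5 h with single libraries left out. The level of miR-21-3p at 0 h rests on 24 to 65 counts per library.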
